A study of Mus musculus with 12 samples.

Results

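The EGR factors and their NAB corepressors formed a set of 5 genes, Egr1, Egr2, Egr3, Nab1 and Nab2. The members were chosen by gene symbol from the Ensembl identifiers of the count table, and the set was proposed with earlier results of these data known. They made up 5 of the 37991 genes in the table, and all 5 were among the 13538 genes with enough counts to be tested. B cells from spleens of 8-week-old mice, isolated by negative selection that also removes CD43+ activated B cells, were profiled by polyA RNA-seq in 4 groups of 3 samples. Every group carried a Cre transgene driven by the Cd23 promoter (CD23-iCre in the labels), which is first active at the transitional B cell stage. Cre-only cells carried this transgene alone, whereas Runx1 c-k/o cells came from its cross with Runx1 fl/fl mice and lose exon 4 of Runx1 where Cre acts. Cells of each genotype were taken either at rest (0 h) or after 3 h with anti-IgM + IL-4, a stimulus that engages the B cell receptor and the IL-4 receptor. Unstimulated cells kept for 3 h were not analysed here, so time and stimulus cannot be told apart.

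EGR1, EGR2 and EGR3 are zinc finger transcription factors that bind a shared GC-rich motif. Their genes are classic immediate early genes: antigen receptor signalling, through the Ras and ERK kinases and through calcium and NFAT, switches them on within minutes, in part at serum response elements bound by SRF and its ETS partners. NAB1 and NAB2 have no DNA contact of their own. They dock on EGR proteins and can restrain them, in part by bringing in the NuRD chromatin remodelling complex, and Nab2 is itself a known target of EGR factors, which closes a negative feedback loop. In T cells, EGR2 and EGR3 are known for limiting antigen receptor responses and EGR1 for promoting them. Whether they act so in the B cells studied here was not tested.

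The members lie at 5 separate loci. On NCBIM37 (mm9), Egr2 (ENSMUSG00000037868) spans 66998223 to 67004936 of chromosome 10 on the plus strand, and Nab2 (ENSMUSG00000025402) spans 127097974 to 127105624 of the same chromosome on the minus strand. Egr3 (ENSMUSG00000033730) spans 70477252 to 70479964 of chromosome 14 on the plus strand, and Nab1 (ENSMUSG00000002881) spans 52514138 to 52557523 of chromosome 1 on the minus strand. The windows of 250 bases before the annotated start are shown for the 3 members that passed the test as higher after activation of Cre-only cells. Each was read 5′ to 3′ on the gene's strand from the NCBIM37 genome, with capitals marking the CArG box, the core of a serum response element.
Egr2: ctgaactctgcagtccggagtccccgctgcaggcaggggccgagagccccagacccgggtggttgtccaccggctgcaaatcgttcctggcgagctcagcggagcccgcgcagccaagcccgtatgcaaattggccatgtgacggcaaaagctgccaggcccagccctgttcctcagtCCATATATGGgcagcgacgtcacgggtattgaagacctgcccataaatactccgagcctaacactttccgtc
Egr3: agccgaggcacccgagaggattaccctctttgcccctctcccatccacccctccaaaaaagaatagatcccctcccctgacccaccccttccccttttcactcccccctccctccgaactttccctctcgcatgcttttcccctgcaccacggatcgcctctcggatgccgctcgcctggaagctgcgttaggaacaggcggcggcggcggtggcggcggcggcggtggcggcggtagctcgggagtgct
Nab2: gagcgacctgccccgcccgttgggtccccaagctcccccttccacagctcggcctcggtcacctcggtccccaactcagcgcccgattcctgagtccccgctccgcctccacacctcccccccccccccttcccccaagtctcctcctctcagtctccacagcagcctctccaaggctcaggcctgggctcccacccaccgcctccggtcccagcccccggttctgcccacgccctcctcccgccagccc
The Egr2 window is chr10:67000367-67000616, the Egr3 window chr14:70477002-70477251 and the Nab2 window chr10:127103767-127104016. The Egr2 and Nab2 windows precede the start of the main transcript and lie within an intron of longer annotated transcripts. Egr2 held 1 CArG box, from 72 to 63 bases before the start, and Egr3, Nab1 and Nab2 held none. Among 22372 promoter windows of the same length, 1.31% held a CArG box. None of the 5 member windows held the EGR motif as GCGTGGGCG (0.679% of all windows) or GCGGGGGCG (3.51%), the RUNX motif TGTGGT (12.7%) or the cyclic AMP response element TGACGTCA (1.98%), on either strand. The member windows were GC-rich, from 61.6% for Egr2 to 72.4% for Nab2, beside a median of 54.8% over all windows. These letter matches are descriptions of the windows and are not measurements of binding. By ChIP-seq of wild-type resting B cells, the paper reports strong RUNX1 peaks near the Egr2 start. A window without the letters TGTGGT can thus lie near bound RUNX1.

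Egr1 (ENSMUSG00000038418) spans 35020861 to 35024638 of chromosome 18 on the plus strand. Its window held 2 CArG boxes, from 83 to 74 and from 105 to 96 bases before the start, and 63.6% GC. Some exon bases of Egr1 and Nab2 are also annotated to genes on the opposite strand. For Nab2 these were 40 bases of Stat6, 151 of Tmem194 and 1050 of the noncoding Gm16229, to which 68035, 5172 and 14 reads were assigned over the 12 libraries. For Egr1 they were 8 bases of Gm17507, with 3 reads in all. The library kit keeps the strand, but the strand setting of the counting is not given in the sources used here, so Nab2 counts are uncertain to that extent.

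Libraries held between 14442251 and 23641552 counts assigned to genes, and the lowest count of a member in any library was 205, for Nab2. Levels are given as CPM, counts scaled to the library total and by the trimmed mean of M values (TMM), with factors from 0.886 to 1.07, and per kilobase of the union of annotated exons where genes are compared with each other. All 10 B cell markers were detected in every group. Over both genotypes they summed to 10270 to 11250 CPM at rest and 5672 to 6376 CPM after 3 h. T cell markers summed to 32.4 to 55.3 CPM at rest and 144 to 181 CPM after 3 h. Il7r and Lck were the highest of these T cell markers after 3 h. Plasma cell markers summed to 1541 to 1679 CPM at rest and 2016 to 2389 CPM after 3 h, and NK cell markers to at most 12.5 CPM. Markers of myeloid cells were present at rest, with a summed level of 377 to 471 CPM in Cre-only and 329 to 704 CPM in Runx1 c-k/o cells, and at 21.0 to 72.4 CPM after 3 h. Dendritic cell markers summed to 29.4 to 38.9 CPM throughout. A pair of Runx1 c-k/o libraries stood apart from the others of their group: replicate 2 at 0 h, the highest of its 3 for 50.5% of tested genes, and replicate 1 at 3 h, with the lowest TMM factor. Results that rest on them are given with and without them. Leaving out both was an alternative chosen after seeing the data. Runx1 itself, the targeted gene, was counted over all its exons, so a loss of exon 4 cannot be seen and the gene's total checks nothing about the labels. At rest its level was 84.0 ± 2.48 CPM in the Cre-only and 99.9 ± 3.75 CPM in the Runx1 c-k/o group (SD, n = 3 each). After 3 h the same groups had 36.8 ± 1.83 CPM and 64.1 ± 14.7 CPM (SD, n = 3 each). The total was called higher in Runx1 c-k/o cells at 3 h (1.74-fold, edgeR adjusted p = 0.00769) but not at rest (1.19-fold, edgeR adjusted p = 0.548). By Western blot, the paper reports that resting Runx1 c-k/o B cells had no RUNX1 protein.

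The first question was which EGR and NAB genes respond to activation of control cells. After 3 h of anti-IgM + IL-4, Egr2 rose 14.01-fold and Nab2 3.49-fold in Cre-only cells, Egr3 rose 1.45-fold and Nab1 fell 1.19-fold. Egr1 did not pass the test. Thus 4 of 5 members passed edgeR's quasi-likelihood test at an adjusted p below 0.05, with 3 higher, where 38.6% of all tested genes were called higher, and 1 lower, where 36.4% were called lower. Most tested genes passed in this comparison, so a call alone says little about the members, and their sizes are given for that reason. The share of tested genes without overlap between 0 h and 3 h was not counted in either genotype. A lack of overlap between these times therefore also says little by itself. The median log2 fold change of the 5 members was 0.54, beside 0.03 over all tested genes. In these bulk samples, fewer cells of a type and less RNA per cell cannot be told apart. Levels are relative to the other transcripts of a library, and the spike-ins added at lysis were not used. Rises and falls per cell were thus not measured, which matters most for small changes such as that of Nab1.

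Egr2, the member with the largest change, was at 42.4, 46.6 and 44.6 CPM in the 3 resting Cre-only samples and at 624, 622 and 626 CPM in the 3 activated ones. The groups lay far apart, and the 3 activated samples were nearly equal. Their highest-to-lowest ratio was 1.01, smaller than in all but 0.517% of tested genes, for which the median ratio was 1.14. The log2 fold change was 3.81 (SE 0.267, edgeR adjusted p = 1.04e-07), larger in size than that of 96.4% of tested genes. Nab2, the EGR-inducible corepressor, was at 13.1, 14.8 and 15.1 CPM at rest and at 53.6, 50.6 and 45.3 CPM after 3 h. Again the groups did not overlap, and the 3.49-fold rise (SE 0.160 on the log2 scale) had an edgeR adjusted p of 6.80e-07.

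Egr3, which often acts redundantly with Egr2, was at 108, 106 and 98.8 CPM in resting Cre-only samples and at 171, 147 and 136 CPM in activated ones. All 3 activated samples lay above all 3 resting ones, with a log2 fold change of 0.54 (SE 0.191, edgeR adjusted p = 0.0228). This call was lost without Cre-only 0 h replicate 3 (adjusted p = 0.0670) and without Cre-only 3 h replicate 1 (adjusted p = 0.0834). With library totals in place of TMM, which moved the median of all genes to −0.10, the value was 0.41 (adjusted p = 0.104), and among genes with at least 10 counts in every sample it was 0.38 (adjusted p = 0.103). With 1 factor of unwanted variation estimated from the replicates (RUVs), the value moved the other way, to 1.30 in edgeR (adjusted p = 1.00e-05) and 1.19 in DESeq2 (adjusted p = 2.52e-11). Nab1, the more constant corepressor, was at 81.4, 86.7 and 90.4 CPM at rest and at 67.7, 73.4 and 75.7 CPM after 3 h. All 3 activated samples were below all 3 resting ones, by a narrow margin, with a log2 fold change of −0.25 (SE 0.0939, edgeR adjusted p = 0.0268). Same-numbered Cre-only samples deviated together, and with the replicate number as a block within each genotype the change was −0.25 with an adjusted p of 0.0614, which did not pass. Leaving out Cre-only 0 h replicate 2 or 3, or Cre-only 3 h replicate 1 or 2, also ended the Nab1 call, with adjusted p between 0.0616 and 0.116. So did RUVs, with values of −0.11 in edgeR (adjusted p = 0.457) and −0.22 in DESeq2 (adjusted p = 0.163).

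Egr1, the founding member of the family, was at 199.9, 241 and 216 CPM in resting Cre-only samples and at 206, 199 and 153 CPM after 3 h. These groups overlapped, and the log2 fold change of −0.24 (SE 0.185, edgeR adjusted p = 0.262) did not pass the test. The 3 EGR genes therefore differed widely at this time: Egr2 and Egr3 passed as higher, with log2 fold changes of 3.81 and 0.54, and Egr1 had a value of −0.24. The samples at 0 h and 3 h do not show levels in between, at which immediate early genes can peak. By RT-qPCR over a shorter time course, the paper reports an early Egr2 peak and a later decline in Cre-only cells. For Runx1 c-k/o cells it reports the same profile with a much stronger peak and higher Egr2 throughout that course. The times of that peak were not sampled here.

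**Figure D1:**
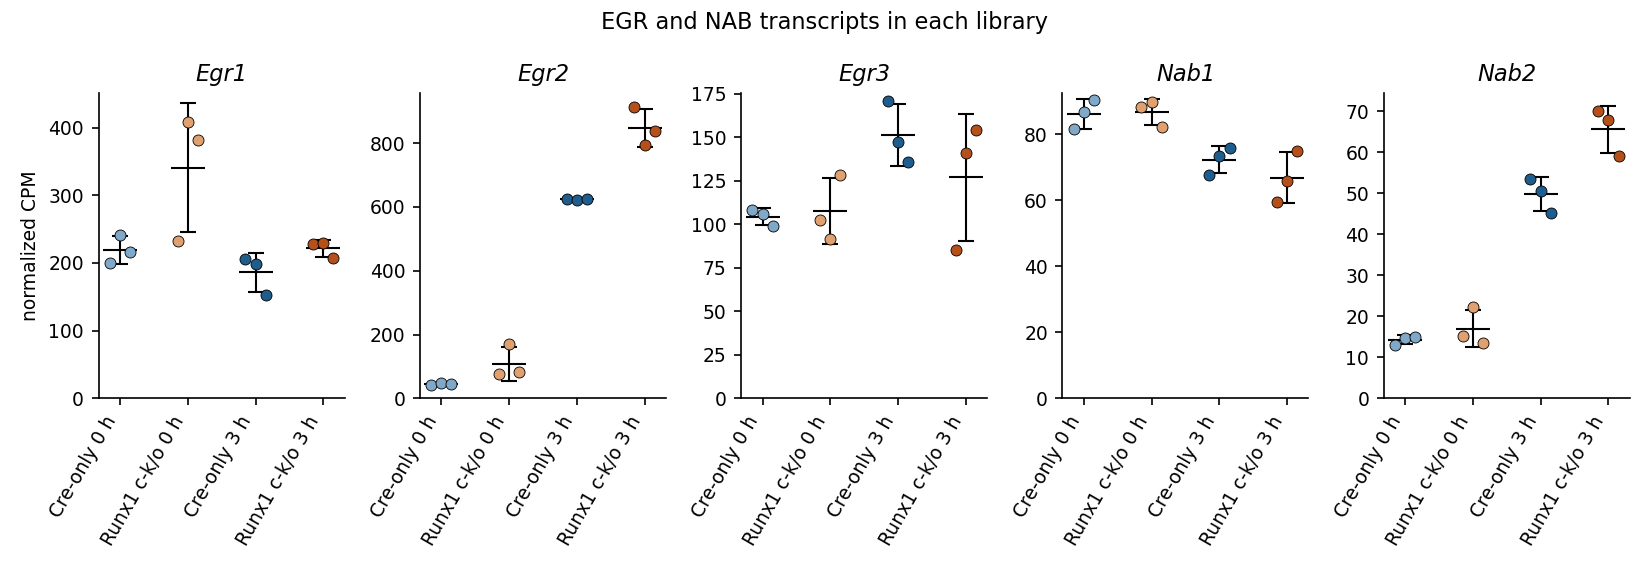
Normalized level in CPM, on linear axes from 0, of the 5 EGR and NAB genes in each of the 12 samples, with a wide bar at the mean of the 3 samples of a group and error bars of 1 SD. Egr2 and Nab2 separate the activated from the resting samples in both genotypes, and Egr2 spreads from 74.6 to 170 CPM among the Runx1 c-k/o samples at rest.

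The same comparison within Runx1 c-k/o cells gave 4 of 5 members called, 2 higher (Egr2 and Nab2), where 37.7% of tested genes were called higher, and 2 lower (Egr1 and Nab1), where 36.6% were. Egr2 was at 74.6, 170 and 81.2 CPM at rest and at 912, 795 and 838 CPM after 3 h. Every activated sample was above every resting one, with a log2 fold change of 2.96 (SE 0.256, edgeR adjusted p = 6.28e-07), or 7.81-fold. Nab2 went from 15.2, 22.2 and 13.6 CPM to 69.97, 67.9 and 59.1 CPM. Here too the groups were apart, with a log2 fold change of 1.95 (SE 0.160, edgeR adjusted p = 4.16e-07), or 3.86-fold. Nab1 went from 88.2, 89.8 and 82.2 CPM to 59.6, 65.95 and 75.03 CPM, lower in all 3 activated samples, with a log2 fold change of −0.37 (SE 0.0943, edgeR adjusted p = 0.00314). This call was lost with RUVs in edgeR (−0.23, adjusted p = 0.135) and in DESeq2 (−0.30, adjusted p = 0.0643).

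Egr1 fell 1.54-fold with activation of Runx1 c-k/o cells, from 232, 409 and 382 CPM to 228, 229 and 207 CPM (log2 fold change −0.62, SE 0.185, edgeR adjusted p = 0.00894). The lowest resting sample was only just above the highest activated one. Without both libraries that stood apart the value was −0.52 and the call was lost (adjusted p = 0.112). Egr3 went from 103, 91.7 and 129 CPM to 85.5, 141 and 154 CPM, and these groups overlapped. Its log2 fold change was 0.24 (SE 0.191, edgeR adjusted p = 0.272). The lowest of these activated samples was replicate 1, the library with the lowest TMM factor, and without it the value was 0.44 (adjusted p = 0.0124). Egr3 also passed without both libraries that stood apart (0.33, adjusted p = 0.0288) and with RUVs, at 1.00 in edgeR (adjusted p = 0.000114) and 0.94 in DESeq2 (adjusted p = 4.45e-07). The activation comparisons of both genotypes were made on separate samples, and the Egr2 and Nab2 calls were kept under all 23 alternatives tried in each. The size of the Egr2 change was smaller with RUVs, at 3.19 in edgeR and 3.07 in DESeq2 for Cre-only cells in place of 3.81, and at 2.38 and 2.31 for Runx1 c-k/o cells in place of 2.96 (log2).

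The next question was what loss of Runx1 changed in resting cells. Egr2 was 2.44-fold higher in resting Runx1 c-k/o cells than in resting Cre-only cells (95% confidence interval 1.68 to 3.53), and it was the only member called, 1 of 5, where 1.49% of tested genes were called in either direction. Egr1 had a fold of 1.56 that did not pass, and Egr3, Nab1 and Nab2 had log2 fold changes of 0.04, 0.01 and 0.25 that did not pass either. The median over the 5 members was 0.25, beside 0.03 over all tested genes. In 1 member, Egr2, all 3 Runx1 c-k/o samples lay above all 3 Cre-only samples, a pattern that 12% of tested genes had.

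The 3 resting Cre-only samples were at 42.4, 46.6 and 44.6 CPM of Egr2, and those of the Runx1 c-k/o genotype at 74.6, 170 and 81.2 CPM. Replicate 2 was far above the other two, but each was above every control. The log2 fold change was 1.29 (SE 0.245, edgeR adjusted p = 0.0222), and 98.6% of tested genes had a smaller change in size. Replicate 2 at 0 h was also the library that stood apart. Without it the log2 fold change was 0.80 and still passed (adjusted p = 0.00169). Without it and replicate 1 at 3 h it was 0.81 (SE 0.0628, adjusted p = 4.16e-07). The call was lost when any 1 of the 3 resting Cre-only samples was left out (adjusted p from 0.10 to 0.12) and when the 2 resting groups were fitted alone (log2 fold change 1.25, adjusted p = 0.0621).

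Myeloid cells also express EGR genes, so their markers are given beside Egr2. The summed level of the 10 myeloid markers was 420, 377 and 471 CPM in resting Cre-only replicates 1, 2 and 3, and 329, 704 and 534 CPM in resting Runx1 c-k/o replicates 1, 2 and 3. The sample with the highest Egr2 level, replicate 2, also had the highest myeloid sum. In Runx1 c-k/o replicate 1 Egr2 was at 74.6 CPM, above all controls, and the myeloid sum was lower than in every control. In replicates 2 and 3 the sum was above every control. The part of myeloid cells in the Egr2 difference, in any of these samples, was not tested. Erythroid markers summed to 37.5 to 255 CPM in Cre-only and 247 to 411 CPM in Runx1 c-k/o resting samples.

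Egr1 was at 199.9, 241 and 216 CPM in resting Cre-only samples and at 232, 409 and 382 CPM in resting Runx1 c-k/o samples. Replicates 2 and 3 were above all controls, and replicate 1 lay within their range. The log2 fold change was 0.64 (SE 0.185, edgeR adjusted p = 0.157). DESeq2's Wald test called it, narrowly (adjusted p = 0.0492), as did edgeR without Runx1 c-k/o 0 h replicate 1 (0.85, adjusted p = 0.0164). Nab2 at 15.2, 22.2 and 13.6 CPM overlapped its controls at 13.1, 14.8 and 15.1 CPM, and its highest sample was again replicate 2. Nab1 levels were close in all 6 of these samples, at 86.2 ± 4.51 CPM in Cre-only and 86.7 ± 4.04 CPM in the Runx1 c-k/o group (SD, n = 3). Egr3 was at 104 ± 4.94 CPM and 108 ± 19.0 CPM (SD, n = 3).

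The spread between samples was itself uneven across the members. In resting Runx1 c-k/o cells the highest-to-lowest ratio of the 3 samples was 2.28 for Egr2, larger than for 94.2% of tested genes, 1.76 for Egr1, larger than for 85.0%, and 1.63 for Nab2, larger than for 79.8%. For Nab1 it was 1.09, larger than for 12.5%, and the median over tested genes was 1.29, with 0.1 CPM added to each value before ranking. After 3 h, Egr3 had the widest spread among the members in Runx1 c-k/o cells, at 1.81, where the median gene had 1.41.

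**Figure D2:**
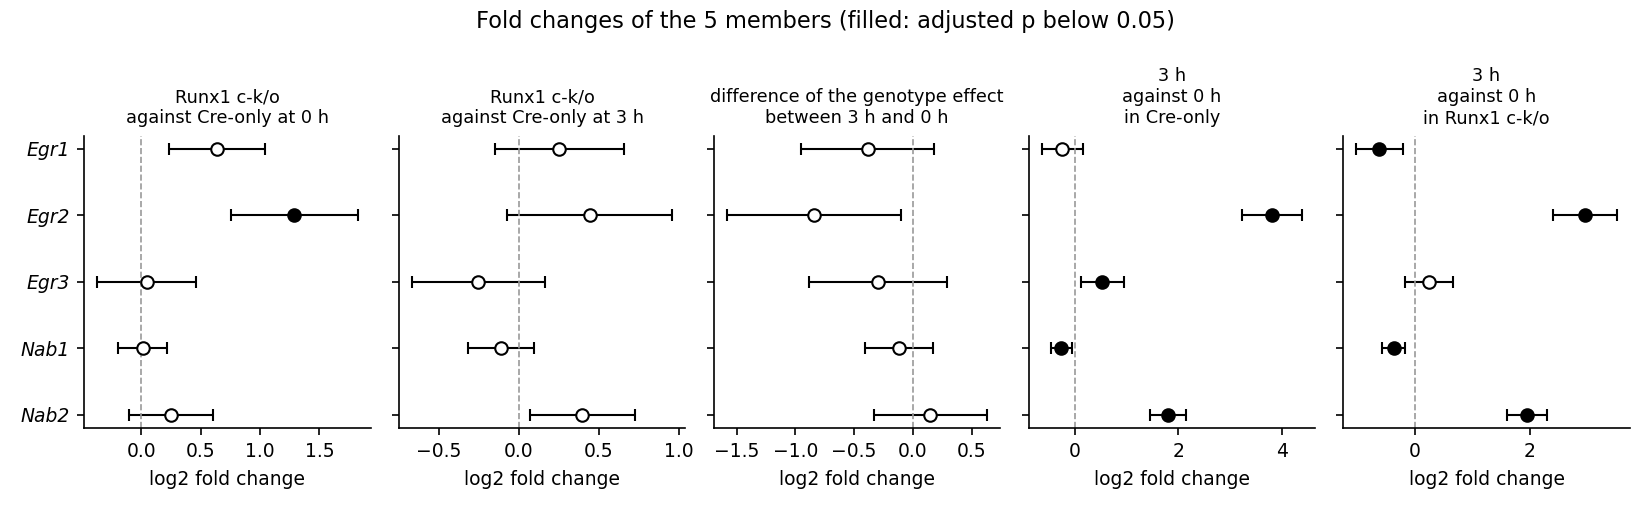
Log2 fold change of the 5 members in each comparison, with the 95% confidence interval of edgeR's fit and filled points for an adjusted p below 0.05. Egr2 at rest, at 1.29, is the only member called between the genotypes, whereas 4 of 5 members are called with activation in each genotype.

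At 3 h, none of the 5 members was called between the genotypes by edgeR, where 2.77% of tested genes were. One member, Nab2, had an unadjusted p under 0.05, and DESeq2 called 0. Egr2 was nevertheless higher in every Runx1 c-k/o sample, at 912, 795 and 838 CPM against 624, 622 and 626 CPM in Cre-only. Its log2 fold change was 0.44 (95% confidence interval −0.07 to 0.96, edgeR adjusted p = 0.370), or 1.36-fold. Nab2 was at 69.97, 67.9 and 59.1 CPM against 53.6, 50.6 and 45.3 CPM, without overlap, with a log2 fold change of 0.40 (SE 0.151, edgeR adjusted p = 0.226). Egr1 was at 228, 229 and 207 CPM against 206, 199 and 153 CPM, also without overlap, with a log2 fold change of 0.25 (edgeR adjusted p = 0.487). These 3 members had all Runx1 c-k/o samples above all Cre-only samples, which 9.50% of tested genes had.

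The fit shared 1 estimate of each gene's spread over all 4 groups, and for Egr2 this spread included replicate 2 of the Runx1 c-k/o group at rest, a sample that has no part in the 3 h groups. Without that sample the 3 h difference in Egr2 passed (adjusted p = 0.0121). Without both libraries that stood apart, Egr2 had a log2 fold change of 0.41 (adjusted p = 0.000135) and Nab2 one of 0.37 (adjusted p = 0.0157), so 2 of 5 members were then called. For Egr2 these were the only 2 of 22 alternatives that passed. With the 3 h groups fitted alone, where the resting replicate 2 also has no part, Egr2 did not pass. For Nab2, leaving out both libraries was the only 1 of 22 alternatives that passed. With both left out, 914 genes were called in all, in place of 375. Egr3 and Nab1 had values of −0.25 and −0.11 at 3 h, and neither passed.

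**Figure D3:**
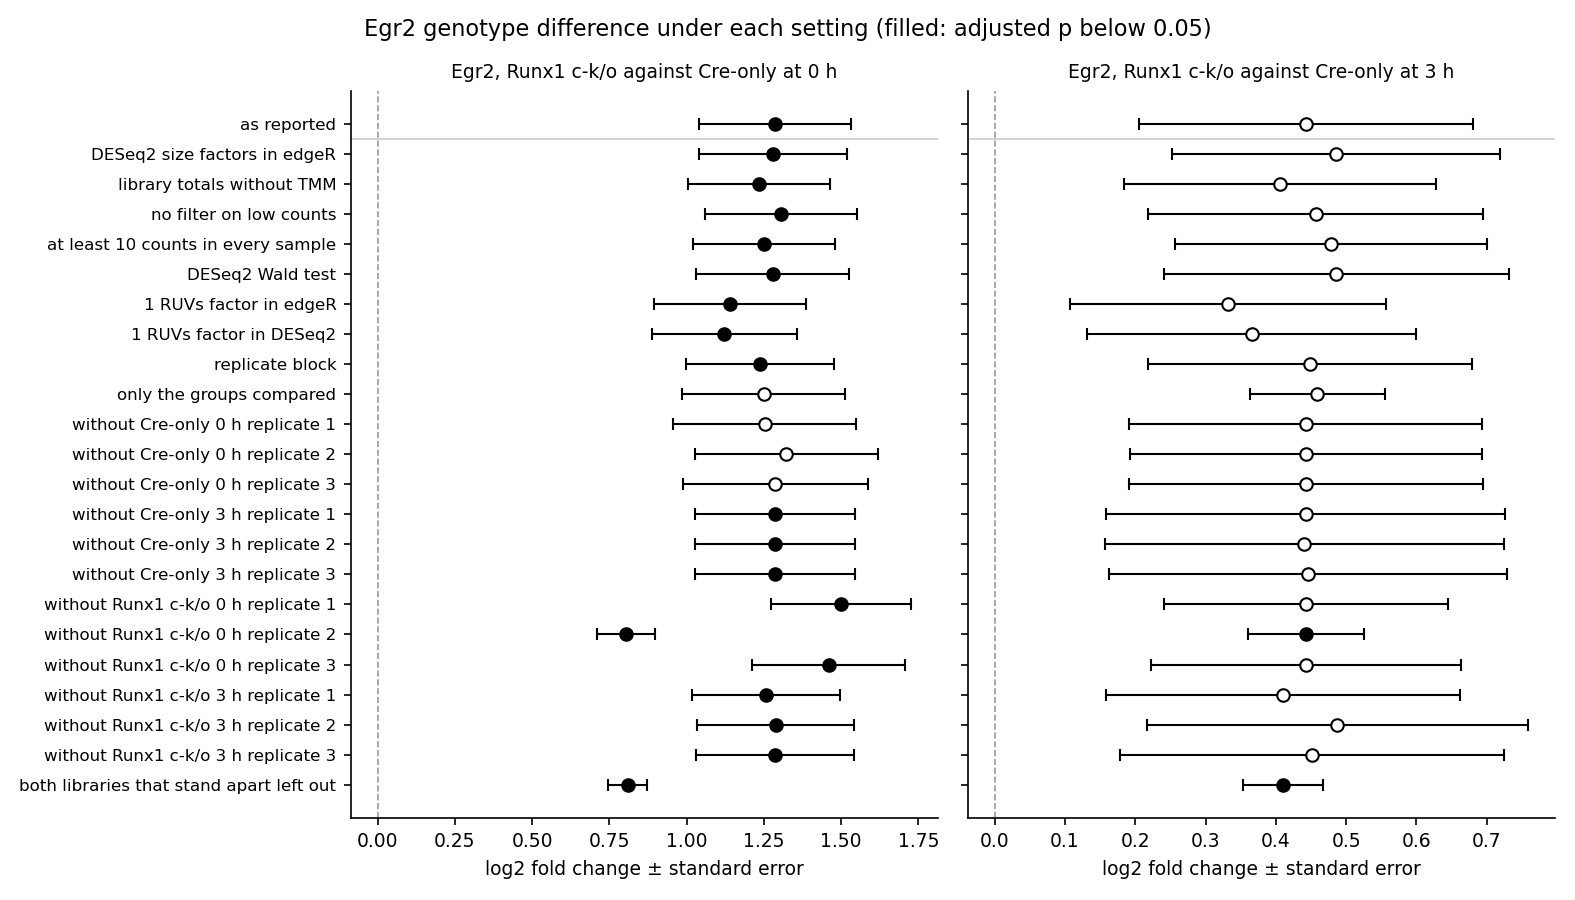
Log2 fold change of Egr2 from the Cre-only to the Runx1 c-k/o genotype, at 0 h and at 3 h, under each way of fitting or leaving out samples, with bars of 1 standard error and filled points for an adjusted p below 0.05. The value at 0 h lies between 0.80 and 1.50 and that at 3 h between 0.33 and 0.49, all above 0, while the calls vary.

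Whether the genotype effect itself differed between rest and activation was tested as an interaction. None of the 5 members passed in edgeR, where 0.0813% of tested genes did, or 11 genes. One member, Egr2, had an unadjusted p under 0.05 (−0.84 on the log2 scale, SE 0.339, edgeR adjusted p = 0.851), and DESeq2 called 0. The size of the Egr2 effect was thus 1.29 at rest and 0.44 at 3 h, a difference that did not pass. Without both libraries that stood apart the difference was −0.40 and passed (adjusted p = 0.0236). This was the only 1 of 22 alternatives in which it passed, and it was chosen after seeing the data. The other members had differences from −0.38 for Egr1 to 0.15 for Nab2. The genotype and activation comparisons share samples with each other and with the interaction.

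Levels between genes were compared per kilobase of exon. In resting Cre-only cells, Egr1 (64.5 to 77.8 CPM per kb) and Egr3 (67.3 to 73.6) were highest and overlapped, followed by Nab1 (20.0 to 22.2), Egr2 (12.5 to 13.7) and Nab2 (4.46 to 5.12), which did not overlap their neighbours. After 3 h the order in Cre-only cells was Egr2 (183 to 184 CPM per kb), Egr3 (92.3 to 116), Egr1 (49.4 to 66.5), and then Nab1 (16.6 to 18.5) and Nab2 (15.4 to 18.2), which overlapped. Egr2 thus moved from the lowest EGR gene to the highest. In resting Runx1 c-k/o cells, Egr1 (74.7 to 132 CPM per kb) and Egr3 (62.4 to 87.5) overlapped, as did Egr2 (22.0 to 50.1) and Nab1 (20.1 to 22.0) at their limits, with Nab2 lowest (4.63 to 7.54). After 3 h in Runx1 c-k/o cells, Egr2 (234 to 269 CPM per kb) was followed by Egr3 (58.2 to 105) and Egr1 (66.8 to 74.0), which overlapped, then Nab2 (20.1 to 23.8) and Nab1 (14.6 to 18.4), which did not.

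The make-up of the EGR pool was described as shares of the summed level per kilobase of Egr1, Egr2 and Egr3, which do not depend on the scaling between libraries. Egr2 made up 8.47% ± 0.245 of it in resting Cre-only cells and 53.1% ± 3.23 after 3 h, and Runx1 c-k/o cells had 14.6% ± 5.31 and 61.3% ± 5.02 (SD, n = 3 each). Egr2 therefore went from a minor part to the larger part of the EGR transcripts in both genotypes. By sample, its share ran from 8.29% to 8.75% in Cre-only cells at rest and from 10.2% to 20.5% in Runx1 c-k/o cells at rest, without overlap, and from 50.1% to 56.5% and from 57.9% to 67.1% after 3 h, again without overlap. Egr1 took 45.6% and Egr3 45.9% of the resting Cre-only pool, against 17.3% and 29.6% after 3 h. The shares repeat the measured levels in another form and were not tested.

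**Figure D4:**
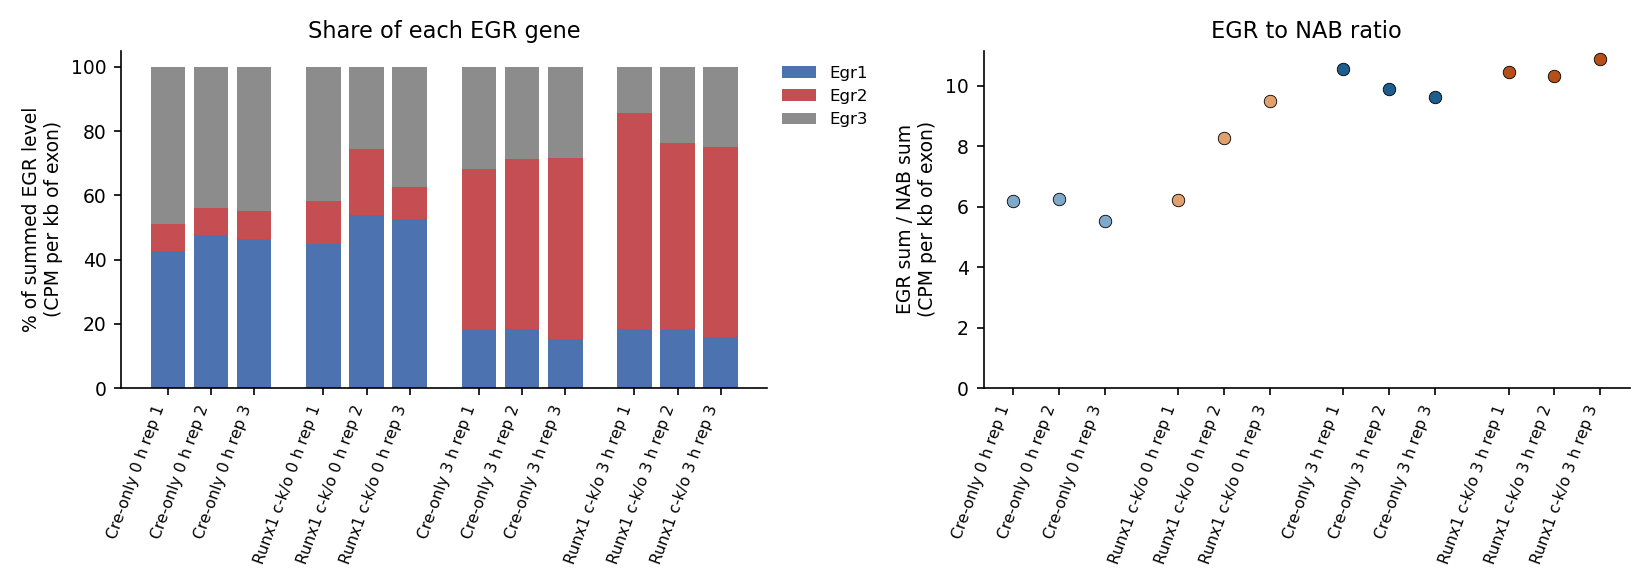
Share of Egr1, Egr2 and Egr3 in their summed level per kilobase of exon, in percent (left), and ratio of the summed EGR to the summed NAB level (right), for each of the 12 samples. Egr2 goes from 8.29 to 8.75% of the pool in resting Cre-only samples to 50.1 to 56.5% after 3 h, and is above the Cre-only range in the Runx1 c-k/o samples at both times.

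The corepressors shifted in the same way but less far. Nab2 made up 18.7% of the summed NAB level per kilobase in resting Cre-only cells and 48.9% after 3 h, with 21.2% and 57.7% in the Runx1 c-k/o group. The summed EGR level per kilobase was 5.97 ± 0.407 times the summed NAB level in resting Cre-only cells and 10.01 ± 0.474 times after 3 h (SD, n = 3). The ratios in the Runx1 c-k/o samples were 6.22, 8.27 and 9.48 at rest and 10.4, 10.3 and 10.9 after 3 h. The resting Runx1 c-k/o samples were thus spread from inside the Cre-only resting range, 5.51 to 6.24, to near the activated ones. The resting groups overlapped in this ratio. Between Egr2 and Nab2 alone, the ratio of levels per kilobase was 2.70 in resting and 10.9 in activated Cre-only cells, with 5.36 and 11.2 in the Runx1 c-k/o group.

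The other genes of the pathway were followed as lists, described by counts of calls and by medians. Between the genotypes, 1.49% of all tested genes were called at 0 h and 2.77% at 3 h, in either direction. With activation of Cre-only cells, 38.6% were called higher and 36.4% lower, and the counts of every list stand beside these shares. The remaining EGR-like genes, Egr4 and Wt1, had at most 8 and 1 counts in any library and were not tested. Of 24 genes that carry the signal to EGR promoters (Ras and ERK pathway kinases, SRF, ternary complex factors and NFAT), 1 was called lower at rest and 1 higher at 3 h between the genotypes, and both calls were Elk3. Elk3, an ETS family partner of SRF, was at 64.1 ± 1.48 CPM in Cre-only and 43.6 ± 2.44 CPM in Runx1 c-k/o cells at rest (SD, n = 3, log2 fold change −0.56, edgeR adjusted p = 0.00510), and at 18.1 ± 0.192 CPM and 24.6 ± 2.04 CPM after 3 h (0.44, edgeR adjusted p = 0.0174). The genotype difference in Elk3 thus had opposite signs at rest and at 3 h. The call at rest was kept under all 22 alternatives and that at 3 h under 16 of 22. The 3 h call was lost without Cre-only 3 h replicate 1, 2 or 3, without Runx1 c-k/o 3 h replicate 2, with library totals and with the compared groups alone (highest adjusted p = 0.138), and the value stayed between 0.37 and 0.51. The list's medians were −0.08 at rest and −0.20 at 3 h, beside 0.03 and 0.01 over all genes. In edgeR, 3 genes had an unadjusted p under 0.05 at rest and 7 at 3 h. DESeq2 called 2 lower at rest, and 1 higher and 1 lower at 3 h. With RUVs, 2 were called lower at rest in edgeR and 3 in DESeq2. At 3 h, RUVs gave 1 higher and 3 lower in edgeR, and 2 higher and 3 lower in DESeq2. With activation of Cre-only cells 6 rose and 12 fell, Nfatc1 (log2 fold change 0.88) and Nras (0.86) among the risers. The largest falls were in the Ras activators Rasgrp1 (12.1-fold) and Rasgrp3 (10.3-fold).

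NAB proteins act through NuRD, and all 18 listed NuRD subunits and other partners were tested. None was called between the genotypes by edgeR at 0 h or 3 h, with 0 at an unadjusted p under 0.05 and 0 by DESeq2, and the medians were −0.02 and −0.05. With RUVs, 2 were called lower at 3 h in edgeR and 2 in DESeq2, in both cases Crebbp and Gatad2b. With activation of Cre-only cells 10 rose and 5 fell, with a median log2 fold change of 0.43 beside 0.03 over all genes. The histone-binding subunit Rbbp7 rose 3.12-fold and the deacetylase Hdac2 2.97-fold. The paralogous subunit Mta3 fell 4.32-fold, and the methyl-CpG-binding Mbd2 fell 1.91-fold.

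Of 24 genes described elsewhere as EGR targets in lymphocytes, 19 were tested. At rest 1 was called between the genotypes, Ndrg1, an EGR2 target linked to T cell anergy, which was lower in Runx1 c-k/o cells, at 5.14 against 8.91 CPM (log2 fold change −0.79, SE 0.149, edgeR adjusted p = 0.0205). At 3 h the cytokine gene Tgfb1 was higher, at 385 against 257 CPM (0.59, SE 0.126, edgeR adjusted p = 0.0269), and the repressor Bhlhe40 lower, at 153 against 205 CPM (−0.43, SE 0.0906, edgeR adjusted p = 0.0255). The medians of the list were 0.10 at rest and 0.21 at 3 h. Of the 22 alternatives, 17 kept the Ndrg1 call, 13 the Tgfb1 call and 12 the Bhlhe40 call, all with the same sign. The Ndrg1 call was lost without any 1 of the Cre-only 0 h samples and without Runx1 c-k/o 0 h replicate 1 or 3 (highest adjusted p = 0.111). Both 3 h calls were lost without any 1 of the Cre-only 3 h samples, without Cre-only 0 h replicate 2, without Runx1 c-k/o 3 h replicate 2, with the replicate block and with the compared groups alone. The Tgfb1 call was also lost without Cre-only 0 h replicate 1 or 3 (highest adjusted p = 0.143), and the Bhlhe40 call without Runx1 c-k/o 3 h replicate 3, without a filter on low counts and with the size factors of DESeq2 in edgeR (highest adjusted p = 0.138). Other tools called more of the list at 3 h: 4 higher and 1 lower with DESeq2, with RUVs in DESeq2 and without both libraries that stood apart, and 3 higher and 1 lower with RUVs in edgeR. Tnf and Cdkn1a were among the higher genes in each of these. With activation of Cre-only cells 7 rose and 11 fell. The suppressor of cytokine signalling Socs1 rose 11.6-fold and the transcription factor Nfil3 rose 10.8-fold, and Dgka and Cblb, which dampen antigen receptor signalling and are known targets of EGR2 in T cells, fell 20.1-fold and 9.32-fold.

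Other immediate early genes gave the nearest comparison to the EGR genes. Between the genotypes, 0 of 27 were called at rest by edgeR (4 at an unadjusted p under 0.05, 0 by DESeq2), whereas Egr2 was called. At 3 h, 7 of 27 were higher in Runx1 c-k/o cells (Nr4a2, Trib1, Atf3, Junb, Nr4a1, Dusp5 and Fosl2) and none lower, with a list median of 0.56 beside 0.01 over all genes. Of all 13538 tested genes, 199 were called higher in this comparison. The orphan nuclear receptor Nr4a2 was at 46.2 ± 1.28 CPM against 16.5 ± 1.40 CPM (SD, n = 3, log2 fold change 1.49, edgeR adjusted p = 7.17e-05), and Trib1 had a log2 fold change of 0.85 (edgeR adjusted p = 0.000290). The count of 7 fell to 2 without Cre-only 3 h replicate 1 or without Runx1 c-k/o 3 h replicate 2, to 3 without Cre-only 3 h replicate 2 or 3 or with the 3 h groups fitted alone, and rose to 12 without Runx1 c-k/o 3 h replicate 3 and with DESeq2, to 9 with RUVs in edgeR and to 16 with RUVs in DESeq2. It was 5 without both libraries that stood apart.

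With activation of Cre-only cells 7 of the 27 immediate early genes rose and 18 fell, with a median log2 fold change of −1.40. Nr4a3 rose 6.30-fold and Fosl2 6.02-fold. Fos and Fosb, AP-1 subunits often induced together with Egr1, fell 265-fold and 720-fold, from 849 ± 71.7 CPM to 3.22 ± 0.339 CPM and from 2056 ± 89.9 CPM to 2.87 ± 0.327 CPM (SD, n = 3). High Fos and Fosb at 0 h thus marked the resting samples of both genotypes. In Runx1 c-k/o cells after 3 h, Fosb was at 7.21, 123 and 4.24 CPM and Fos at 5.60, 45.2 and 3.89 CPM. Replicate 2 stood far above the other two in both genes, and its Egr2 level, 795 CPM, was the lowest of its group. The same library had a myeloid marker sum of 72.4 CPM, against 28.9 and 25.7 CPM in replicates 1 and 3, and the part of these cells in its Fos and Fosb levels was not tested.

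**Figure D5:**
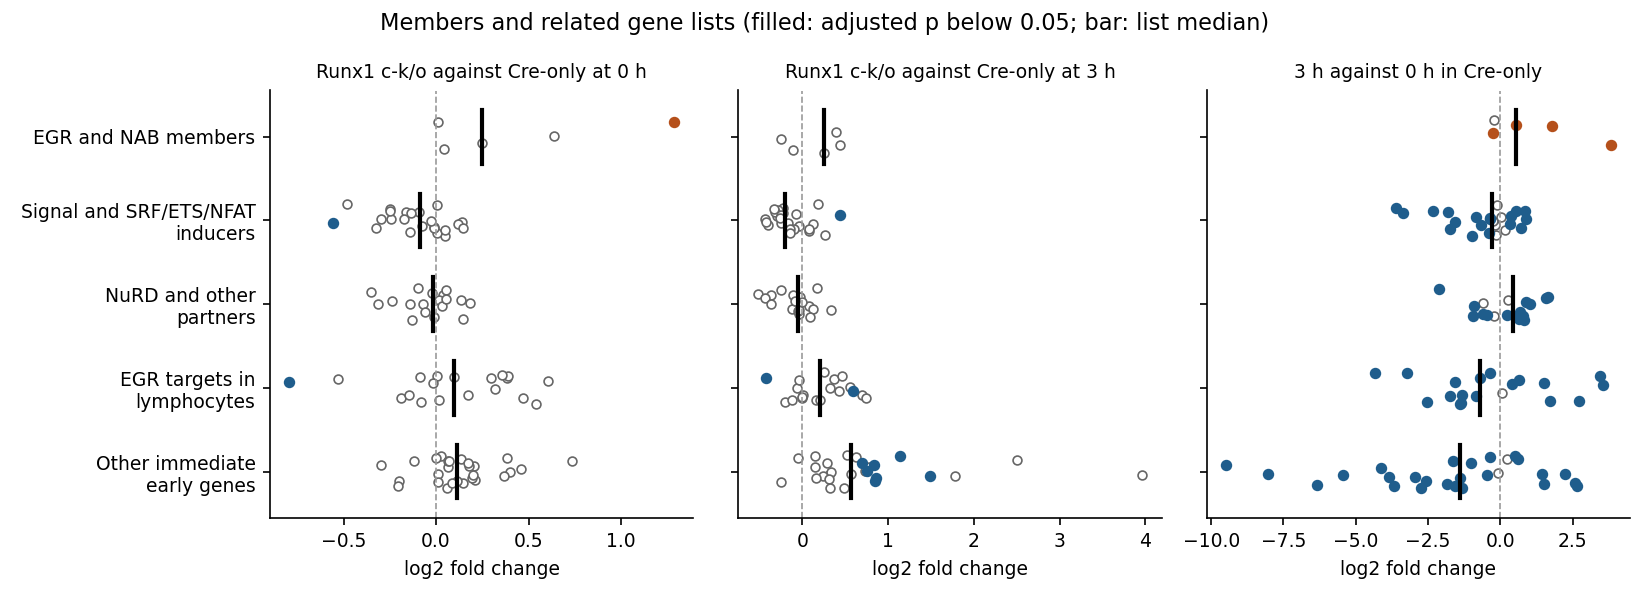
Log2 fold change of the genes of each list and of the 5 members, between the genotypes at 0 h and at 3 h and with activation of Cre-only cells, with a bar at the median. At 3 h the other immediate early genes have a median of 0.56, the NuRD and partner genes one of −0.05.

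Genes with the pattern most like each member were found by the root mean square difference of centred log2 levels over the 12 samples. For Egr2 they were Pkib (0.162), Slc15a3 (0.228) and Gpt2 (0.236). For Nab2 they were Rab35 (0.130), Chst10 (0.134) and 5730469M10Rik (0.135). Egr1 was closest to 4921517L17Rik (0.175), an immunoglobulin kappa variable gene (0.196) and Nr1d1 (0.205), Egr3 to Rai1 (0.106), Xpnpep3 (0.115) and 6330503K22Rik (0.123), and Nab1 to Mdm4-ps (0.0734), Ubqln2 (0.0740) and Trim26 (0.0753). No member was among the closest genes of another. Egr2 and Nab2, both higher with activation and Egr2 by the larger factor, differed by 0.863, which placed Nab2 at rank 673 of the genes nearest to Egr2.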

How the data were processed

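PolyA RNA of 12 samples was sequenced from stranded TruSeq libraries. The deposited values are raw counts per gene, made by the authors by base calling with CASAVA 1.8.4, alignment to mm9 (NCBIM37) with TopHat2 2.0.11 and counting with featureCounts, as the submitters' processing notes name them. The strand setting and the featureCounts version are not given in the sources used here, and the ERCC spike-ins added at lysis were not used here. Counts were kept for genes that passed filterByExpr (minimum count 10), scaled by TMM and tested with the robust quasi-likelihood F test of edgeR 4.0.16 in R 4.3.3, with 1 term per group over all 12 samples and Benjamini-Hochberg adjustment over all tested genes. The threshold was an adjusted p of 0.05. DESeq2 1.42.0 and 1 factor of unwanted variation (RUVs) were alternatives. Python 3.11.15, pandas 2.3.3, numpy 2.4.6, scipy 1.17.1 and matplotlib 3.10.9 made the tables and plots. The calling step was tested on simulated data.

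Groups came from the labels, which do not say that samples came from separate mice, so p-values measure the spread between these samples. Libraries of 14442251 to 23641552 counts left counting error small for all members, and intervals cover what the fit's spread covers. Members and lists were chosen with earlier results of these data known. From each list the text names up to 2 genes in each direction with the smallest adjusted p between genotypes, the 2 largest rises and 2 largest falls with activation of Cre-only cells, and for each member the 3 genes nearest in pattern. The other 4 immediate early genes called at 3 h were named after their values were seen, as were Crebbp, Gatad2b, Tnf, Cdkn1a and the values of Fos and Fosb by sample. Deviations of same-numbered samples of 0 h and 3 h from the group means correlated at 0.276, 0.176 and 0.144 in Cre-only cells. In Runx1 c-k/o cells the same-numbered values were −0.254, −0.264 and 0.254. Differently numbered Runx1 c-k/o samples went together at 0.477 for replicate 2 at 0 h with replicate 1 at 3 h, the libraries that stood apart. Replicate 3 at 0 h went with replicate 2 at 3 h at 0.309, and replicate 1 with replicate 3 at 0.269. Whether such samples share a source was not tested. Both replicate blocks were fitted by number and included the Runx1 c-k/o samples, so their values outside the Cre-only comparison carry this limit.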

Additional observations from a re-analysis of the deposited data

Results flagged for a closer look

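No member gave a genotype effect that differed between 0 h and 3 h at an adjusted p below 0.05, but 2 genes of the pathway lists did, and no explanation was tested for either. For Elk3 the interaction was 1.00 on the log2 scale (0.997, SE 0.120, edgeR adjusted p = 0.00814), with Runx1 c-k/o samples at 43.6, 41.1 and 46.0 CPM against 62.4, 65.1 and 64.8 CPM at 0 h and at 22.9, 26.8 and 23.9 CPM against 18.1, 17.9 and 18.3 CPM at 3 h. It passed under 21 of 22 alternatives, from 0.93 to 1.08, and was lost with the replicate block within genotype (adjusted p = 0.260). That block rests on replicate numbers by which the Runx1 c-k/o samples did not all deviate together. For Nr4a2 the interaction was 1.42 (SE 0.169, edgeR adjusted p = 0.00814), from 57.1, 49.4 and 53.0 CPM against 45.6, 46.0 and 60.8 CPM at 0 h to 47.6, 45.0 and 46.1 CPM against 14.9, 16.9 and 17.7 CPM at 3 h. It passed under all 22 alternatives, from 1.28 to 1.50.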

How the results depend on the processing

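The 25 member values (5 members, 5 comparisons) gave 560 values under the alternatives, of which 521 kept their direction and their side of the threshold, 19 were no longer past it, 10 newly passed and 10 changed sign. The sign changes were of values near 0. For Egr3 at 0 h the value was −0.10 without Runx1 c-k/o 0 h replicate 3, and −0.10 to 0.14 over all such omissions. For Nab1 at 0 h the value was −0.0319 with library totals, −0.0115 with at least 10 counts in every sample, −0.0122 with the compared groups alone, −0.0123 with both libraries that stood apart left out (an alternative chosen after seeing the data), and −0.0308 to 0.0475 with 1 sample left out. The Nab1 interaction was 0.0010 with both left out. Members called at 0 h numbered 1, but 2 with DESeq2, 0 with the compared groups alone and 0 to 2 with 1 sample left out. At 3 h they numbered 0, with 0 to 1 for 1 sample left out and 2 for both left out, and 1 for the interaction with both left out. With activation of Cre-only cells they numbered 4, and 2 to 4 with 1 sample left out.

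Over all genes, calls at 0 h numbered 202, but 378 with DESeq2, 524 with RUVs in edgeR, 611 with RUVs in DESeq2, 598 with both libraries left out and 81 to 386 with 1 sample left out. At 3 h they numbered 375, but 709, 1036 and 1230 with those 3 tools, 914 with both left out, 158 with the compared groups alone and 180 to 617 with 1 sample left out. For the interaction they numbered 11, but 83, 142 and 253 with those tools, 187 with both left out, 4 with the replicate block within genotype and 4 to 31 with 1 sample left out. With the replicate block, Egr2 at 0 h was 1.24 (adjusted p = 0.0417), and the Nab1 call in Cre-only cells within genotype was the only member call that a block changed. The Egr1 fall in Runx1 c-k/o cells was lost with RUVs in edgeR (−0.83, adjusted p = 0.0623). The cause of these changes was not tested. Library totals moved the median of all genes with activation from 0.03 to −0.10 in Cre-only cells and from 0.0046 to −0.11 in Runx1 c-k/o cells (log2). Each group had 3 samples, which limits the precision of all values.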
